A study of Mus musculus with 19 samples.

Results

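Myd88 loss in livers that already lacked Ager was examined by comparing the 4 Ager-null/Myd88-null livers, called double-null here, with the 6 Ager-null livers of the same series, across all genes on the array. These 10 samples, picked by their titles, are part of 19 in all. The other samples are 5 WT and 4 Myd88-null livers, used here only for the same Myd88 contrast with Ager present. All mice were male C57BL/6, 10 to 12 weeks old, kept on a 12-hour light-dark cycle, and killed 2 h after resection of 85% of the liver. Ager is deleted in every animal of the comparison, and Myd88 in the double-null animals alone. The labels name whole-animal genotypes and no cell type, so the loss is not assigned to hepatocytes or to other liver cells. No unresected liver was analysed here, so every difference is between genotypes after resection.

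Myd88 is a cytosolic adaptor that couples interleukin-1 receptors and nearly all Toll-like receptors to the IRAK kinases, TRAF6 and NF-kB. RAGE, the product of Ager, binds HMGB1, S100 proteins and glycated proteins at the cell surface and can also raise NF-kB activity. After a resection, Kupffer cells release cytokines such as TNF and IL-6 through Myd88 and NF-kB, and hepatocytes answer within hours with immediate early and acute phase transcripts as they leave quiescence. The comparison asks what Myd88 still contributes to that early state once RAGE is gone.

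The values are log2 expression levels from GCRMA, which corrects each array for background and normalizes the arrays together, so a difference of 1 is 2-fold. Liver identity was plain, since 12 of 13 hepatocyte markers were over log2 4 on all arrays. Glomeruli are named in the labels' RNA isolation protocol, but 11 of 12 kidney and glomerulus markers were over log2 4 on no array. Within a group no pair of arrays was closer than a root mean square difference of 0.328 over the tested genes. Each sample is described as RNA of a mouse, and p-values measure the spread between these samples. The labels state a high RNA integrity score for all samples. The 5′ control probe set of Pcx, a long transcript whose 5′ signal falls when cDNA is short, set the groups apart. Its 3′ minus 5′ difference was 4.79 to 5.42 in the Ager-null arrays and 5.73 to 6.78 in the double-null arrays, with no overlap. The Gapdh 3′ minus 5′ difference was 0.085 to 0.145 and 0.153 to 0.275, also with no overlap, whereas the ranges of beta-actin and Tfrc overlapped. The S number in the sample descriptions, whose meaning is not stated, was 13 to 17 and 19 in Ager-null and 5, 6, 11 and 12 in double-null livers, so S number and Myd88 loss cannot be told apart. With S range (1 to 6, 7 to 12, 13 to 20) as a block, no range holds arrays of both groups, and the fit links them only through WT and Myd88-null arrays. In the range of the Ager-null arrays these are WT replicate 5 and Myd88-null replicate 4, an array whose bioB control spike stood far above the rest (10.64), so values from this block rest on that pair.

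Of 8515 genes tested with limma, 208 (2.44%) differed between double-null and Ager-null livers at an adjusted p under 0.05. Of these, 136 (1.60%) were higher and 72 (0.846%) lower in the double-null livers, and such genes are called below. Their changes had a median size of 0.78 and 58 exceeded 2-fold. Over all tested genes the median change was 0.04, 1936 genes had an unadjusted p under 0.05, and the arrays of the groups did not overlap for 714 genes (8.39%), 160 of them among the 208. The higher share of the calls was 65.4% as deposited, 47.5% after quantile normalization and 40.0% after centring each array on its median.

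The number of calls rested on single arrays. It was 18 without double-null replicate 3, 44 without Ager-null replicate 3, 48 without double-null replicate 4 and 58 without Ager-null replicate 4. It was 83 and 111 without double-null replicates 1 and 2, and 138, 131 and 110 without Ager-null replicates 1, 2 and 6. WT and Myd88-null arrays enter only through the shared estimate of the spread, yet without WT replicates 1, 2 and 4 the count was 114, 112 and 135, and without Myd88-null replicates 1, 2 and 3 it was 368, 92 and 126. In 18 of the 208 genes the call held in all 10 fits that left out an array of the compared groups: Myd88, 2010315B03Rik, Limd1, Lars2, Itga9, Noct, Pim1, Fkbp5, Trim2, Lgals1, Gnai1, Ctse, Fgfr1, Ccdc122, Gas2, Hacd2, Qsox1 and 1700001C19Rik. These genes were singled out after their values were seen. With the Pcx difference of each array as a covariate, 7 genes were called: 2010315B03Rik, Lars2, Limd1, Myd88, Itga9, Noct and Npl. The part of RNA quality in the other calls was not tested beyond this fit, in which the covariate and the genotype overlap strongly.

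**Figure D1:**
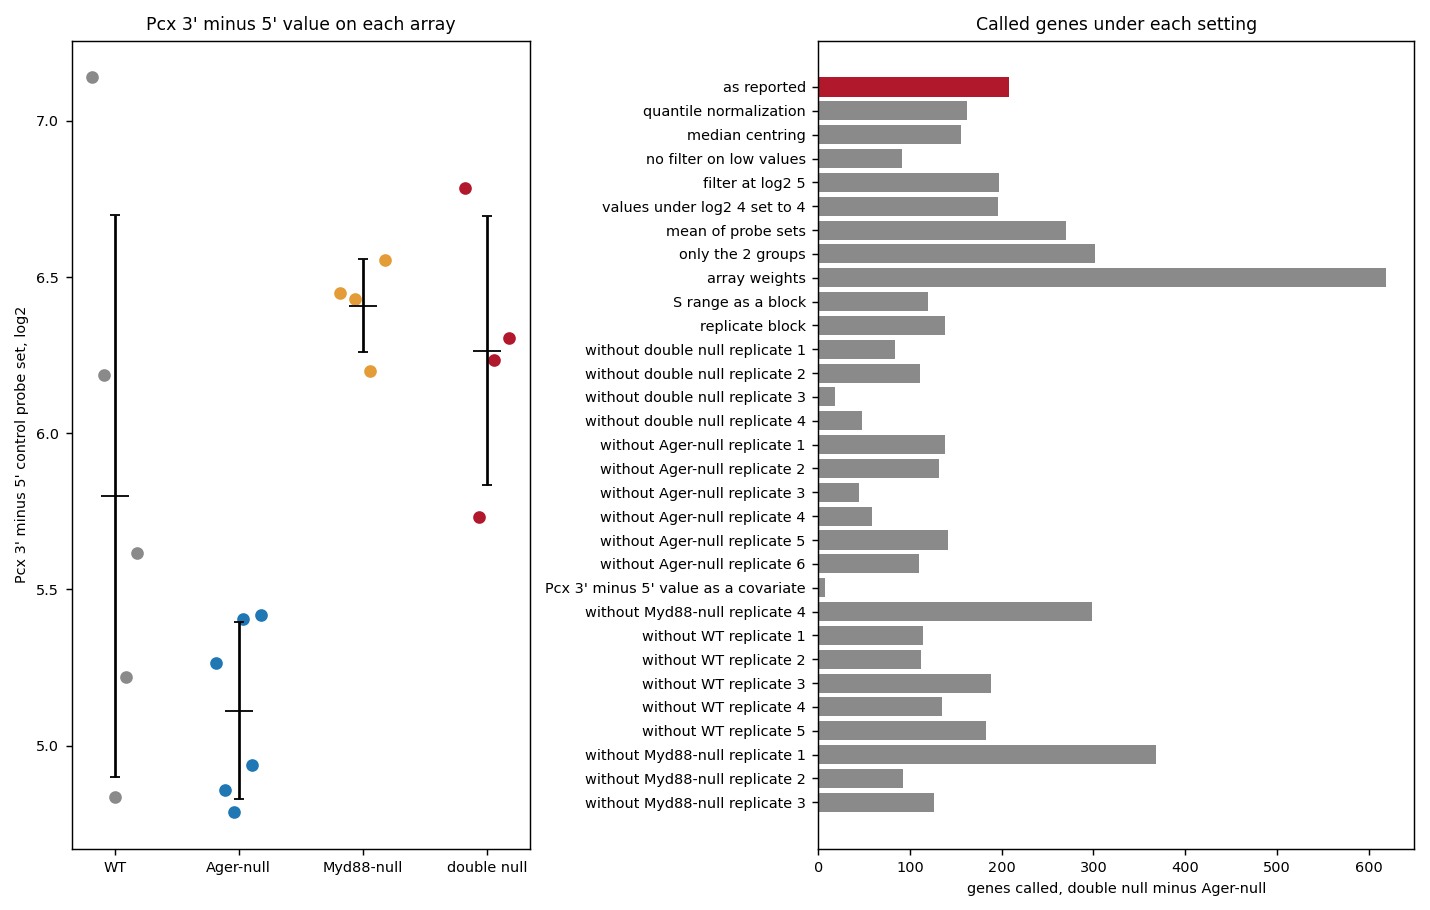
Left, the Pcx 3′ minus 5′ control probe set difference (log2) of each array in the 4 genotypes, with mean and SD bars; the 6 Ager-null arrays lie between 4.79 and 5.42 and the 4 double-null arrays between 5.73 and 6.78. Right, bars give the number of genes called in double-null minus Ager-null livers under each setting, 208 as reported, 18 without double-null replicate 3 and 7 with the Pcx difference as a covariate.

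Myd88 itself was low in every double-null liver. Its log2 level was 3.63, 3.86, 3.72 and 2.60 in the 4 double-null livers, and 5.43, 5.84 and 6.39 as lowest, median and highest of the 6 Ager-null livers. The groups were far apart with no overlap, and the change was −2.46 ± 0.24 (log2, SE; limma adjusted p = 1.45e-05). All double-null values lay under log2 4, near the floor of the values, so the fold is a lower bound: with values under log2 4 set to 4, Myd88 was at least 3.76-fold lower. Every array thus matched its Myd88 label. Ager was under the filter on low values in all groups, so these arrays check nothing about its deletion.

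Genes that neighbour Myd88 on chromosome 9 held the smallest p-values of the comparison. Of the 150 annotated genes on each side of Myd88, 60 were tested and 9 called (15%), against 10 of 420 (2.38%) on the rest of chromosome 9 and 188 of 8034 (2.34%) on other chromosomes. Whether these neighbours changed through Myd88 loss or through flanking chromosome carried with its null allele was not tested. The gene model 2010315B03Rik was at 5.0, 4.84, 4.42 and 4.18 in the double-null livers and at 6.62, 7.69 and 8.04 as lowest, median and highest of the Ager-null livers. It fell by 2.91 ± 0.25, the largest fall of all called genes (adjusted p = 3.36e-06). Limd1, a LIM-domain scaffold protein of cytoplasmic bodies and Hippo signalling, was at 4.72, 4.71, 6.00 and 4.99 against 7.49, 7.76 and 8.16 and fell by 2.67 ± 0.26. Lars2, the mitochondrial leucyl-tRNA synthetase, was at 3.68, 3.01, 3.38 and 3.23 against 4.89, 5.28 and 5.77 and fell by 1.98 ± 0.16 (adjusted p = 2.08e-06). In all 3 genes every double-null array was under every Ager-null array, and for Lars2 the double-null level lay under log2 4, near the floor, where it was at least 2.47-fold lower with values under log2 4 set to 4.

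Itga9, the integrin alpha-9 chain, moved the other way. It was at 4.94, 4.23, 4.08 and 4.64 in the double-null livers and at 2.94, 3.13 and 3.35 in the Ager-null livers, with no overlap and a rise of 1.33 ± 0.15 (adjusted p = 8.80e-05). All its Ager-null values lay near the floor, and it passed the filter on low values only through the groups without Myd88, where it is high. With values under log2 4 set to 4 the change was 0.47 and not called (adjusted p = 0.0570). Its other 2 probe sets differed by 0.08 and 0.29, and both lay under log2 4 on nearly all arrays. The other called neighbours changed by less: Cmc1 (0.44 ± 0.10), Eif1b (0.50 ± 0.11) and 1110059G10Rik (0.68 ± 0.16) rose, and Tcaim (−0.50 ± 0.13) and Sacm1l (−0.48 ± 0.10) fell. The remaining tested neighbours were not called.

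**Figure D2:**
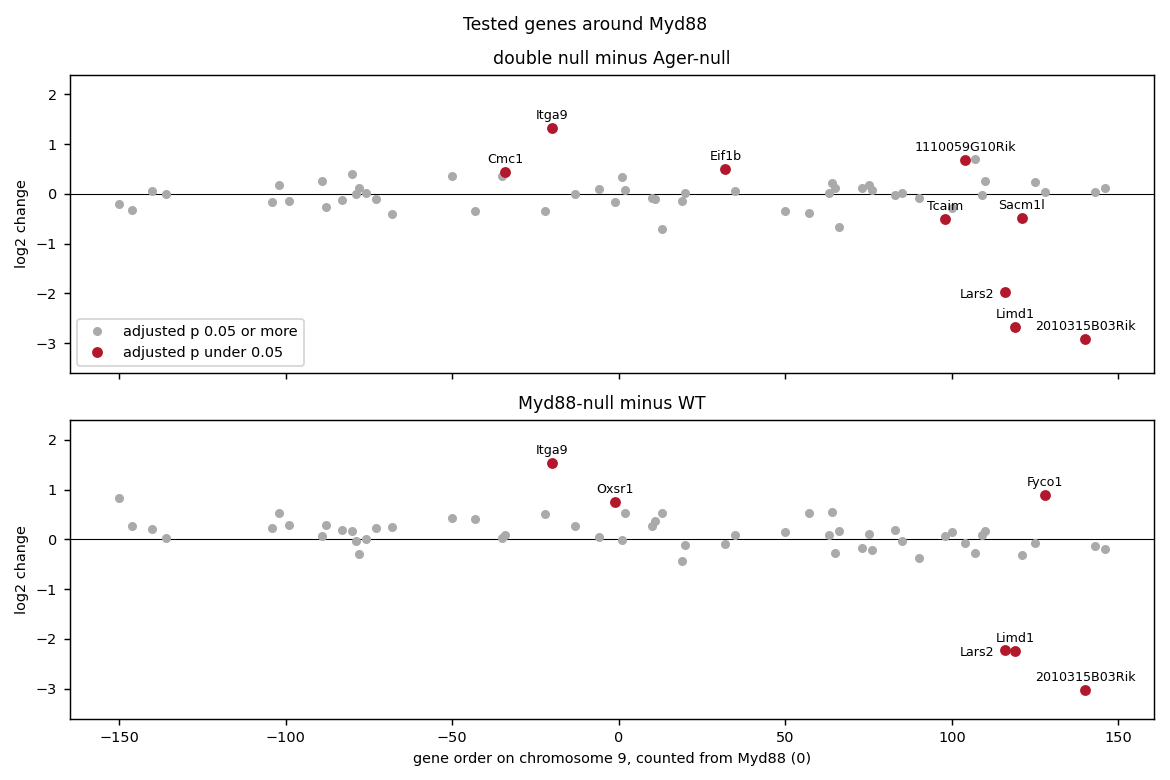
Log2 change of each tested gene among the 150 annotated genes on either side of Myd88, by gene order on chromosome 9 (Myd88 at 0), for double-null minus Ager-null (top) and Myd88-null minus WT (bottom); called genes are red and named. Limd1, Lars2 and 2010315B03Rik lie low and Itga9 high in both panels.

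Away from chromosome 9, Noct was the gene called under every alternative tried. Noct encodes nocturnin, a rhythmically expressed phosphatase acting on NADPH and known for effects on lipid handling in liver. It was at 11.79, 11.46, 11.34 and 11.60 in the double-null livers and at 9.84, 10.21 and 10.54 as lowest, median and highest of the Ager-null livers. All double-null arrays lay above all Ager-null arrays, and the rise was 1.36 ± 0.20, or 2.56-fold (limma adjusted p = 0.00301). With the Pcx covariate the rise was 1.56 (adjusted p = 0.0167). WT and Myd88-null livers lay between, at 10.81 ± 0.39 (SD, n = 5) and 11.24 ± 0.37 (n = 4).

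Pim1 and Fkbp5 fell. Pim1, a serine/threonine kinase induced by cytokines through STAT3 and STAT5, was at 6.03, 5.21, 5.24 and 5.47 in the double-null livers and at 6.51, 7.58 and 8.46 in the Ager-null livers. No array overlapped, and the change was −2.08 ± 0.33, or 4.24-fold (adjusted p = 0.00489). Fkbp5, one of the best-known target genes of the glucocorticoid receptor, whose co-chaperone it encodes, was at 7.80, 8.04, 7.88 and 7.73 against 8.85, 9.49 and 10.18. It fell by 1.61 ± 0.27, or 3.05-fold (adjusted p = 0.00730), and its second probe set over the filter differed by −2.08. The double-null arrays were tightly grouped for Fkbp5 (SD 0.13) and the Ager-null arrays were not (SD 0.47). With the Pcx covariate the changes were −2.35 for Pim1 (adjusted p = 0.0578) and −1.57 for Fkbp5 (adjusted p = 0.172).

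Lgals1 and Gnai1 rose. Lgals1 encodes galectin-1, a secreted lectin that binds beta-galactosides and dampens T cells. It was at 10.88, 10.27, 11.28 and 10.91 in the double-null livers and at 8.73, 9.37 and 9.83 in the Ager-null livers, a rise of 1.52 ± 0.24 (adjusted p = 0.00406), and its other probe set differed by 1.67. Gnai1, the inhibitory G protein subunit alpha-i1, was at 7.56, 6.22, 7.21 and 6.97 against 3.62, 4.25 and 6.19. It had the largest rise of the comparison, 2.48 ± 0.40 or 5.58-fold (adjusted p = 0.00561), although the highest Ager-null array lay just under the lowest double-null array. For Lgals1, WT livers (10.72 ± 0.40, SD) and Myd88-null livers (11.16 ± 0.26) were near the double-null level of 10.83 ± 0.42, and the Ager-null level of 9.31 ± 0.43 stood alone. For Gnai1 the 4 means were 6.39 in WT, 4.51 in Ager-null, 7.28 in Myd88-null and 6.99 in double-null livers.

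Among the other genes that held in every fit with an array left out, Ctse, which encodes the intracellular protease cathepsin E, was at 5.46, 6.21, 6.45 and 5.59 in the double-null livers and at 7.57, 8.67 and 9.48 in the Ager-null livers. It fell by 2.65 ± 0.50 (adjusted p = 0.0157) with no overlap, and by 1.64 with the Pcx covariate (adjusted p = 0.365). Trim2, an E3 ubiquitin ligase, was at 7.25, 7.12, 7.10 and 6.26 against 8.19, 8.31 and 8.86 and fell by 1.48 ± 0.26 (adjusted p = 0.00947). Its 3 next brightest probe sets differed by −0.57 to −1.04, less than the brightest. Fgfr1, a fibroblast growth factor receptor kinase, was at 5.57, 5.17, 4.88 and 5.37 against 3.57, 4.02 and 4.27 and rose by 1.27 ± 0.22 from a level near the floor (adjusted p = 0.00730). Ccdc122 rose by 1.32 ± 0.22, the actin-associated Gas2 by 0.83 ± 0.14 and Hacd2, an enzyme of very long chain fatty acid elongation, by 0.68 ± 0.10. Qsox1, a secreted sulfhydryl oxidase, fell by 0.63 ± 0.10.

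**Figure D3:**
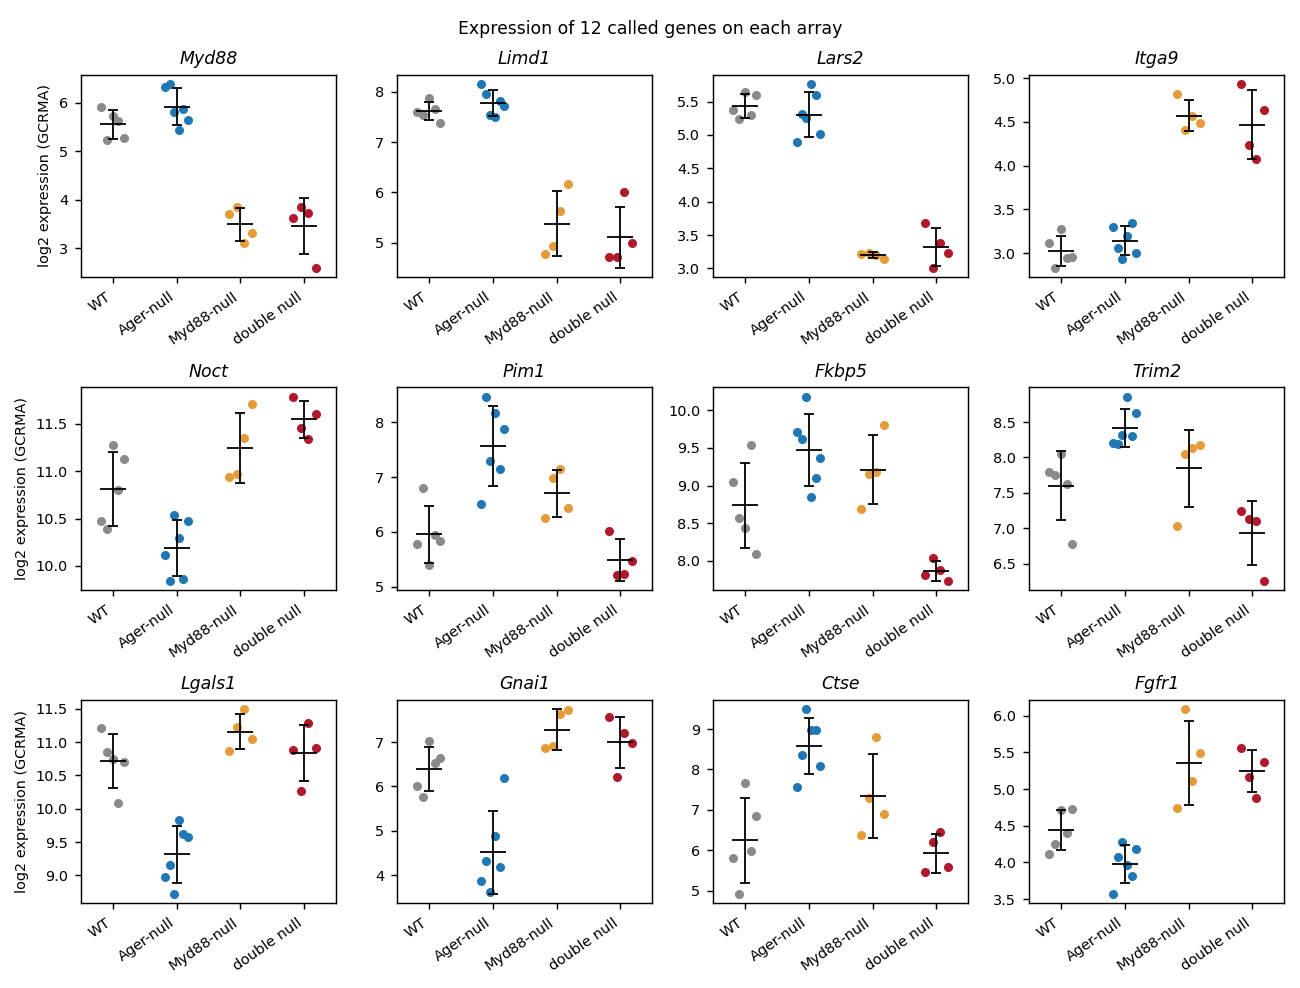
Log2 expression of 12 called genes on each of the 19 arrays (points), by genotype, with group mean and SD bars; each panel has its own vertical scale. Myd88, Limd1 and Lars2 are low and Itga9 high in both genotypes without Myd88, whereas for Lgals1 and Gnai1 the Ager-null arrays are the low group.

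Several further large changes passed the test but kept it in fewer fits. Ceacam1, an adhesion molecule that promotes insulin clearance in liver, was at 9.82, 10.01, 8.71 and 8.81 in the double-null livers and at 10.62, 10.82 and 11.04 in the Ager-null livers, and it fell by 1.47 ± 0.27 (9 of 10 fits). Serpina7, which encodes thyroxine-binding globulin, was at 11.72, 11.22, 11.64 and 10.82 against 9.27, 9.86 and 10.76 and rose by 1.47 ± 0.27 (9 of 10 fits). Neither gene had overlapping groups, though Serpina7 came close. The other Ceacam1 probe sets over log2 4 on all 19 arrays were all lower, by differences from −0.39 to −1.87. Foxq1, a forkhead transcription factor, was at 6.44, 6.72, 6.62 and 6.22 against 7.83, 8.01 and 9.89 and fell by 1.96 ± 0.45, a call kept in 2 of 10 fits. Other named falls with no overlap were Hnrnpu (−1.44 ± 0.30), Zfyve1 (−1.27 ± 0.25), Prdm2 (−1.22 ± 0.26), Brd3 (−1.20 ± 0.23) and Ccar1 (−1.13 ± 0.24). Other bright probe sets did not all follow: for Hnrnpu a pair of them, over log2 4 on all 19 arrays, differed by −0.02 and −0.21, and for Ccar1 another differed by −0.43. The Brd3 change was −0.79 and not called with values under log2 4 set to 4 (adjusted p = 0.0513). Hnrnpu, Prdm2, Brd3 and Ccar1 encode nuclear proteins of RNA processing, histone methylation, acetyl-lysine reading and transcription. Other named rises were Akr1b8 (1.22 ± 0.23), an aldo-keto reductase, and Znhit3 (1.32 ± 0.27).

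Other genes of Myd88 signalling were called in both directions. Of 20 tested members, 2 rose (10.0%, against 1.60% of all genes) and 2 fell (10.0%, against 0.846%), and the median change was 0.08, against 0.04 over all tested genes. Neither rise was called after quantile normalization or median centring. On the receptor side, Il1r1, the signalling receptor for IL-1, was at 8.52, 8.06, 8.29 and 8.41 in the double-null livers and at 8.50, 9.29 and 9.96 in the Ager-null livers and fell by 0.93 ± 0.23 (adjusted p = 0.0466) with slight overlap. Lbp, the plasma protein that hands lipopolysaccharide to CD14, was at 10.22, 9.98, 9.72 and 9.66 against 10.48, 10.55 and 10.75 and fell by 0.70 ± 0.16 with no overlap. Tollip, which restrains IRAK1, rose by 0.38 ± 0.10, whereas its other probe set over log2 4 on all arrays differed by −0.13. Irf7, an interferon regulatory factor activated below Myd88, was at 5.15, 5.30, 6.50 and 5.45 against 4.03, 4.54 and 5.01 and rose by 1.05 ± 0.27. None of the 4 kept its call in more than 3 of the 10 fits with an array left out. The kinase Irak1 (0.23), Irf3 (0.38) and Ikbkg, the regulatory subunit of the IkB kinase complex (0.29), were not called.

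NF-kB target genes and cytokines lay mostly below 0, with 1 of 20 called, which was lower (5.0%, against 0.846% of all genes). The median change was −0.46 and 16 of 20 (80.0%) were below 0, against 43.7% of all tested genes. Nfkbiz, an inducible nuclear IkB protein needed for secondary NF-kB targets, was at 7.95, 8.87, 7.89 and 8.22 in the double-null livers and at 8.48, 9.30 and 10.22 in the Ager-null livers. It fell by 1.13 ± 0.28 (adjusted p = 0.0459), with double-null replicate 2 inside the Ager-null range. Ier3 (−1.36, adjusted p = 0.0562), Irf1 (−0.47, adjusted p = 0.0675) and Bcl3 (−0.77, adjusted p = 0.0738) were just outside the threshold. The neutrophil chemokine Cxcl1, singled out after its values were seen, had a large difference of −2.62 ± 0.84, but its SDs of 1.91 and 1.59 were large too (adjusted p = 0.0936). Leaving out an array gave 0 to 3 called members and a median between −0.51 and −0.36. With the Pcx covariate 0 were called and the median was −0.19. At an unadjusted p under 0.05 there were 7 of the 20 members, and 1936 of all 8515 tested genes.

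Acute phase and IL-6/STAT3 genes had 4 of 37 members called, all lower (10.8%, against 0.846% of all genes). The median was −0.24, with 31 members below 0 (83.8%, against 43.7%). The called members are as follows. They were Pim1, Lbp and Il1r1, given above, and Itih3, a plasma hyaluronan-binding inhibitor chain that fell by 0.37 ± 0.10. Lbp and Il1r1 also belong to the Myd88 pathway list, so the lists are not separate evidence. The plasma protein genes Serpina3n (−0.81), Saa4 (−0.49) and the metalloreductase gene Steap4 (−0.90) were not called (adjusted p = 0.0761, 0.0889 and 0.0865). With an array left out, 1 to 3 members were called. With the Pcx covariate 0 were called, while the median was −0.27 and the changes of Lbp (−0.996) and Il1r1 (−0.97) were no smaller.

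Genes of the unfolded protein response fell in part. Of 32 tested members 4 were called, all lower (12.5%, against 0.846% of all genes), 24 (75.0%, against 43.7%) were below 0, and the median was −0.28. Creld2, a secreted chaperone-like protein of the endoplasmic reticulum (ER), was at 10.46, 9.98, 10.46 and 10.42 in the double-null livers and at 10.74, 11.23 and 11.48 in the Ager-null livers. It fell by 0.85 ± 0.19 (adjusted p = 0.0343) with no overlap. Pdia6, a protein disulfide isomerase, was at 10.65, 10.90, 10.999 and 10.98 against 11.09, 11.56 and 11.70 and fell by 0.59 ± 0.14 with no overlap. Syvn1 and Sel1l encode the ubiquitin ligase HRD1 and its partner, which clear misfolded proteins from the ER. Syvn1 was at 9.99, 9.43, 8.93 and 9.54 against 9.67, 10.45 and 10.96 and fell by 0.90 ± 0.23, with double-null replicate 1 inside the Ager-null range. Sel1l was at 8.63, 8.62, 7.50 and 8.07 against 9.03, 9.30 and 9.61 and fell by 1.12 ± 0.27, and all 4 of its probe sets over the filter were lower by 0.70 or more. The main ER chaperone Hspa5 (−0.32, adjusted p = 0.0841), its co-chaperone Dnajb11 (−0.44, adjusted p = 0.0594) and the oxidase Ero1b (−0.60, adjusted p = 0.0889) were not called. With an array left out, 0 to 3 members were called, and 0 with the Pcx covariate (median −0.19) or S range as a block (median −0.21). With the covariate the changes were −0.73 for Creld2, −0.38 for Pdia6, −0.99 for Syvn1 and −1.06 for Sel1l. WT livers, at 10.21 ± 0.23 (SD) for Creld2 and 10.91 ± 0.13 for Pdia6, lay near the double-null and not the Ager-null level.

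The promoters of these genes are shown because 3 of the 4 share an ER stress element, the binding site of ATF6 with NF-Y. The element was searched as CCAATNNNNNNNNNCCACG on both strands in the RefSeq window of 250 bases before to 50 after each start site (GRCm38.p6), a search chosen after the calls were seen. It was found in 0.12% of 32851 windows. Of the 28 tested members that were not called, 24 had a window and 7 held the element, among them Hspa5, Hsp90b1 and Calr. The 160 bases before the start site follow, gene strand, with the element in capitals.
Creld2 (chr15:88819486-88819645, forward strand): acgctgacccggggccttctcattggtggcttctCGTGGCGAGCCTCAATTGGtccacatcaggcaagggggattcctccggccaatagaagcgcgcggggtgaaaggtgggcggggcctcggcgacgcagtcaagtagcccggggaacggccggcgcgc
Pdia6 (chr12:17266429-17266588, forward strand): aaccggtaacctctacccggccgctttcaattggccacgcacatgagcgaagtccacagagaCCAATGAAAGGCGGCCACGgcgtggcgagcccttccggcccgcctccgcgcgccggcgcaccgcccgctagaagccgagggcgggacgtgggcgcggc
Syvn1 (chr19:6046416-6046575, forward strand): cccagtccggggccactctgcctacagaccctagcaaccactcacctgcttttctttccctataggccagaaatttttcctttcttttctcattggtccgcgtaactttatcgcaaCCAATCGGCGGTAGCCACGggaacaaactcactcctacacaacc
The element starts at −98 in Pdia6 and −44 in Syvn1, and in Creld2 it lies on the opposite strand from −126. The window of Sel1l does not hold these letters.

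Heat shock and chaperone genes had 2 of 21 called, both lower (9.52%, against 0.846% of all genes), and 17 below 0 (81.0%, against 43.7%), with a median of −0.19. Hspd1, the mitochondrial chaperonin HSP60, was at 12.56, 12.63, 12.59 and 12.77 in the double-null livers and at 12.97, 13.08 and 13.22 in the Ager-null livers. Its groups did not overlap and it fell by 0.46 ± 0.11 (adjusted p = 0.0466), but it kept its call in 0 of 10 fits with an array left out. Chordc1, an HSP90 co-chaperone, fell by 0.78 ± 0.20. Hsph1, an HSP70 nucleotide exchange factor, differed by −1.48 and Dnaja1 by −0.46 without passing (adjusted p = 0.0832 and 0.0889). The heat shock element GAANNTTCNNGAA, which HSF1 binds, was in windows of both called genes, of Hspe1 and Hsph1 among 15 uncalled members with a window, and of 0.60% of all windows. The Hspd1 promoter is shown for its overlapping pair of elements, which start at −144 and −139.
Hspd1 (chr1:55087933-55088092, reverse strand): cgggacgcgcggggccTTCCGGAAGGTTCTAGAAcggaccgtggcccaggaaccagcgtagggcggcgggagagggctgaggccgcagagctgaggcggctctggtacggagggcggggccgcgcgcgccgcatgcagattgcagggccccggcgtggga

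Glucocorticoid-responsive genes had 3 of 24 called, all lower (12.5%, against 0.846% of all genes), with a median of −0.19 and 7 members (29.2%, against 8.39%) whose groups did not overlap. Besides Fkbp5, these were Klf9 and Lpin1. Of the 10 fits with an array left out, Fkbp5 kept its call in 10, Lpin1 in 1 and Klf9 in 0. Klf9 was also not called in limma with values under log2 4 set to 4 (adjusted p = 0.0513). Klf9, a Krüppel-like factor induced by glucocorticoids, was at 11.85, 11.55, 11.61 and 11.86 in the double-null livers and at 12.28, 12.60 and 12.81 in the Ager-null livers and fell by 0.85 ± 0.22 (adjusted p = 0.0499). All 6 of its probe sets that passed log2 4 on 10 or more arrays were lower. Lpin1, a phosphatidate phosphatase and transcriptional co-activator of fasting, was at 12.28, 11.93, 11.75 and 12.09 against 12.59, 12.90 and 13.18 and fell by 0.90 ± 0.21. Neither gene overlapped between the groups. Ddit4, an inhibitor of mTORC1 induced by glucocorticoids and stress, was at 9.43, 10.01, 9.70 and 9.41 against 10.83, 11.72 and 12.26, which did not overlap either, but its difference of −2.04 ± 0.55 had an adjusted p of 0.0578. Foxo3 (−0.71) and Zbtb16 (−0.46) were not called. The classical hepatic glucocorticoid targets Pck1 (−0.18), Tat (−0.13) and Tdo2 (−0.22), singled out after their values were seen, were not called either. Leaving out an array left 1 or 2 calls. The Pcx covariate left 0, with a median of −0.14 and changes of −1.57 for Fkbp5, −0.63 for Klf9 and −0.73 for Lpin1. The glucocorticoid element ACANNNTGTNC was in the window of 0 of the 3 called genes and in 3.11% of all windows. Among uncalled members of the list 3 of 17 with a window held it: Mt1, Sgk1 and Tdo2. Other motifs were searched for called members of their lists that had a window. The NF-kB site GGGANTTTCC (0.41% of all windows) was searched in the NF-kB target and Myd88 pathway lists together and was in 0 of 3. The called NF-kB target had no window, so these 3 are Myd88 pathway genes. Among uncalled NF-kB targets 3 of 17 with a window held the site. The STAT site TTCNNNGAA (8.3%) was in 0 of 3 called and 8 of 29 uncalled members with a window. The CRE TGACGTCA (1.79%), searched in the gluconeogenesis and clock lists together, and the E-box CACGTG (7.15%) were each in 0 of 1. The antioxidant element TGACNNNGC (12.39%) was in 1 of 1 called and 5 of 14 uncalled members with a window.

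Metabolic lists held few calls. Of 28 gluconeogenesis, glycogen and insulin signalling genes, 22 were below 0 (78.6%, against 43.7% of all genes, median −0.12). Of the 28, 1 was called lower (3.57%, against 0.846%), Ppp1r3b, which targets a phosphatase to glycogen (−0.88 ± 0.19). Irs2, the main insulin receptor substrate of fasted liver, differed by −1.52 with no overlap but was not called (adjusted p = 0.0585). In lipid storage, Fitm1, a fat storage-inducing ER protein, was at 9.43, 8.94, 10.10 and 9.91 in the double-null livers and at 6.49, 7.45 and 8.89 in the Ager-null livers. It rose by 1.93 ± 0.41 (adjusted p = 0.0250, 7 of 10 fits), with the groups just apart. G0s2, the inhibitor of the lipase ATGL, was at 8.37, 5.66, 5.61 and 6.35 against 7.90, 9.07 and 10.38 and fell by 2.64 ± 0.68 (adjusted p = 0.0487, 2 of 10 fits). Double-null replicate 1 lay inside the Ager-null range for G0s2. ATGL itself, Pnpla2, was at −0.28 and not called. Of the 20 tested fatty acid and triglyceride synthesis genes Lpin1 alone was called, and of 20 bile acid genes the organic anion carrier Slco1a1 (−0.50 ± 0.10). Both were lower, each 5.0% of its list, against 0.846% of all genes. In limma 0 members were called among 16 PPAR-alpha and fatty acid oxidation genes (median −0.20, and 0.17 with S range as a block), 20 cholesterol synthesis genes (median −0.16, and −0.40 to 0.07 with an array left out) and 16 cytochrome P450 genes (median −0.04). At an unadjusted p under 0.05 these lists had 1, 2 and 1 members.

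Of 19 clock genes and outputs Noct alone was called, higher (5.26%, against 1.60% of all genes). The clock factors Clock (−0.83), Rora (−1.15) and Bhlhe40 (−0.55) had groups that did not overlap but adjusted p-values of 0.0810, 0.0951 and 0.102. Groups did not overlap for 21.1% of the list, against 8.39% of all genes. The other Rora probe sets over log2 4 on all 19 arrays differed by −0.19, −0.28, −0.39 and −1.44. For Clock the other such probe set differed by −0.36. Livers are labelled by time after resection and no clock time of killing is stated in the sources used here.

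Antioxidant, cytoskeletal, interferon and BMP lists each held 1 or 2 rises (4.35% to 10.5% of a list, against 1.60% of all genes). Srxn1, the NRF2 target that repairs oxidized peroxiredoxins, was at 9.79, 10.16, 10.86 and 11.02 in the double-null livers and at 8.12, 8.65 and 9.76 in the Ager-null livers, and rose by 1.62 ± 0.34 (adjusted p = 0.0225, 7 of 10 fits). Its groups were just apart and its 2 further bright probe sets differed by 1.64 and 1.28. Of the 20 NRF2 genes 16 were above 0 (median 0.11), but 12 after median centring (median 0.05), and the median was 0.04 to 0.14 with an array left out. Nqo1 (0.79, adjusted p = 0.0899) and Gsta4 (0.50) were not called. Id1, an inhibitor of basic helix-loop-helix factors induced by BMP signalling, was at 7.34, 7.77, 8.10 and 7.86 against 5.28, 6.43 and 7.01 and rose by 1.46 ± 0.36, a call kept in 1 of 10 fits. Interferon-stimulated genes had Irf7 called of 23, with a median of 0.25 that was 0.09 without Ager-null replicate 6, 0.51 without double-null replicate 1, 0.05 with the replicate block and −0.15 with S range as a block. After quantile normalization or median centring neither Id1 nor Irf7 was called. Among EGF receptor and HGF signalling genes, 9 of 10 were below 0 (90.0%, against 43.7% of all genes, median −0.41). Ceacam1 was called lower (10.0% of the list, against 0.846% of all genes), and the HGF receptor Met was at −0.49.

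Actin cytoskeleton and SRF target genes had 2 of 19 called, both higher (10.5%, against 1.60% of all genes), and 15.8% below 0, against 43.7% (median 0.24). They were Lgals1 and Tpm2, a beta-tropomyosin of muscle and contractile cells. Tpm2 was at 8.16, 7.38, 8.19 and 8.45 in the double-null livers and at 5.29, 6.44 and 7.11 in the Ager-null livers, with no overlap and a rise of 1.76 ± 0.41 (adjusted p = 0.0390, 4 of 10 fits). Tpm2 is also a skeletal and smooth muscle marker. The summed level of the 13 measured muscle markers was 7.30 to 8.18 in Ager-null and 8.27 to 9.18 in double-null arrays, with no overlap, and 9 of the 13 were over log2 4 on no array. That sum contains Tpm2. Without it the sum was 6.89 to 7.50 and 6.92 to 7.96, which overlapped, as did the mean of the 13 markers (3.27 to 3.49 and 3.45 to 3.77). The part of admixed muscle cells in the Tpm2 change was not tested.

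**Figure D4:**
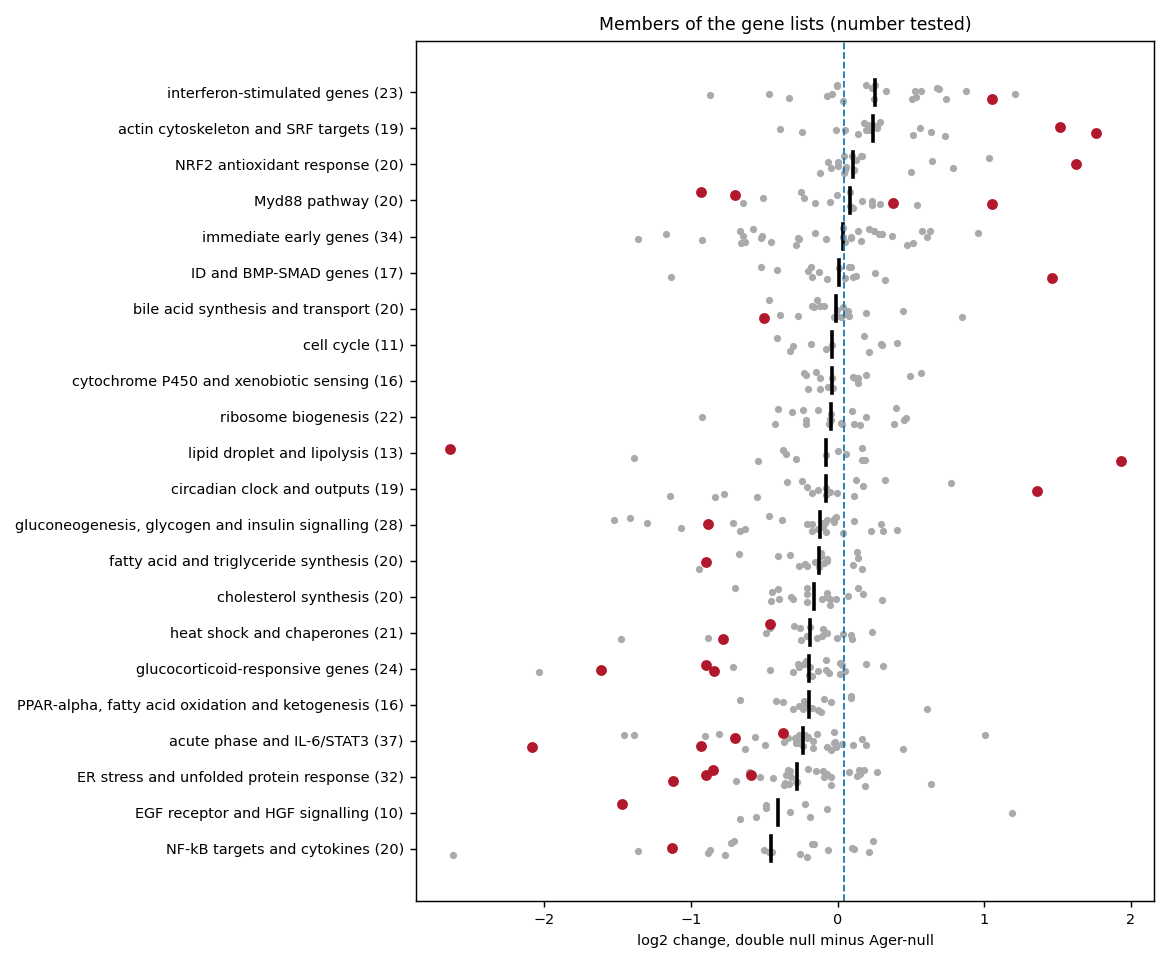
Log2 change in double-null minus Ager-null livers of each tested member of 22 gene lists (points, called genes in red), with the median of each list as a black bar and the median of all tested genes, 0.04, as a dashed line. NF-kB targets have the lowest median (−0.46), while the medians of interferon-stimulated genes (0.25) and of actin and SRF targets (0.24) lie highest and close together.

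Immediate early genes (34 tested, median 0.04), ribosome biogenesis genes (22 tested, median −0.05) and cell cycle genes (11 tested, median −0.04) had 0 members called in limma and 8, 3 and 1 at an unadjusted p under 0.05. These small medians changed sign under some alternatives. Ier3, given above (adjusted p = 0.0562), Junb (−0.66, adjusted p = 0.0596) and Klf6 (0.63, adjusted p = 0.0973) came nearest among the immediate early genes, and Pes1 (0.47, adjusted p = 0.0684) among the ribosome genes. A p that misses the threshold does not show that these genes are equal in the groups.

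Of the markers of liver cell types, 0 of 12 hepatocyte, 0 of 17 Kupffer cell and macrophage and 0 of 13 sinusoidal endothelial markers were called in limma, with 1, 0 and 3 at an unadjusted p under 0.05 and medians of −0.05, 0.14 and −0.05. The summed Kupffer cell level was 13.002 to 13.99 in Ager-null and 13.39 to 14.04 in double-null arrays. Of 12 stellate cell and fibroblast markers 1 was called, the collagen gene Col1a2, which fell (−0.64), against 0.846% of all genes called lower. T and NK cell markers were over log2 4 on no array. The summed level of B and plasma cell markers was 6.63 to 7.07 in Ager-null and 7.09 to 7.37 in double-null arrays, with 0 of 3 tested markers called and 2 at an unadjusted p under 0.05. In bulk liver, fewer cells of a type and less RNA per cell cannot be told apart.

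Myd88-null minus WT, the same Myd88 contrast with Ager present, compares other arrays but shares the limma estimate of the spread with the comparison above. It called 34 genes (0.399%), 6 of them also called in the Ager-null background: Myd88, Limd1, Lars2, Itga9, 2010315B03Rik and, on chromosome 4, Zfp979, a zinc finger gene. All 6 had the same sign in both backgrounds. Like Itga9, Zfp979 was near the floor in Ager-null livers, and with values under log2 4 set to 4 its change was 0.30 and not called in the Ager-null background (adjusted p = 0.252). In the order given their changes with Ager present were −2.06, −2.24, −2.23, 1.55, −3.02 and 2.05, against −2.46, −2.67, −1.98, 1.33, −2.91 and 1.15 without it. Of the 208 genes, 99 (47.6%) had the same sign there, against 39.7% of all tested genes. The median size of their changes was 0.21 there and 0.78 here, where they were selected by their change. Over all tested genes the median size was 0.198 there and 0.201 here. Of the 136 higher genes 80 had the same sign (58.8%), and of the 72 lower genes 19 (26.4%).

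The difference between the backgrounds was tested as an interaction, (double-null minus Ager-null) minus (Myd88-null minus WT). It called 205 genes (2.41%), 59 of them among the 208, which were chosen by a contrast that is part of the interaction. Pim1 was 7.57 ± 0.73 (SD, n = 6) in Ager-null and 5.49 ± 0.38 (n = 4) in double-null livers, but 5.95 ± 0.52 (n = 5) in WT and 6.70 ± 0.42 (n = 4) in Myd88-null livers, an interaction of −2.83 ± 0.48 (limma adjusted p = 0.0255). Fkbp5 was 9.47, 7.86, 8.74 and 9.21 in the same order of groups, an interaction of −2.08 ± 0.40 (adjusted p = 0.0260). Ctse was 8.58, 5.93, 6.25 and 7.35, an interaction of −3.75 ± 0.72. For these 3 genes the mean was lower without Myd88 where Ager was absent and higher without Myd88 where Ager was present, although Myd88-null minus WT was not called for any of them. For Lgals1 (adjusted p = 0.0733), Gnai1 (adjusted p = 0.103) and Noct (adjusted p = 0.0691) the interaction was not called. The interaction rested on few arrays: it called 0 genes without double-null replicate 3, 0 without Myd88-null replicate 3 or 4, 2 without double-null replicate 4 and 28 without Ager-null replicate 3. Without Ager-null replicate 5 it called 91, without double-null replicate 2 it called 109, and without Ager-null replicate 1 it called 320. It called 105, 29, 474 and 24 without WT replicates 1, 2, 3 and 5, and 1739 and 10 without Myd88-null replicates 1 and 2. With S range as a block it called 0 and with the Pcx covariate 14. At an unadjusted p under 0.05 the fits with 0 calls had 1761, 1863, 1667 and 1128 genes, in the order given.

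**Figure D5:**
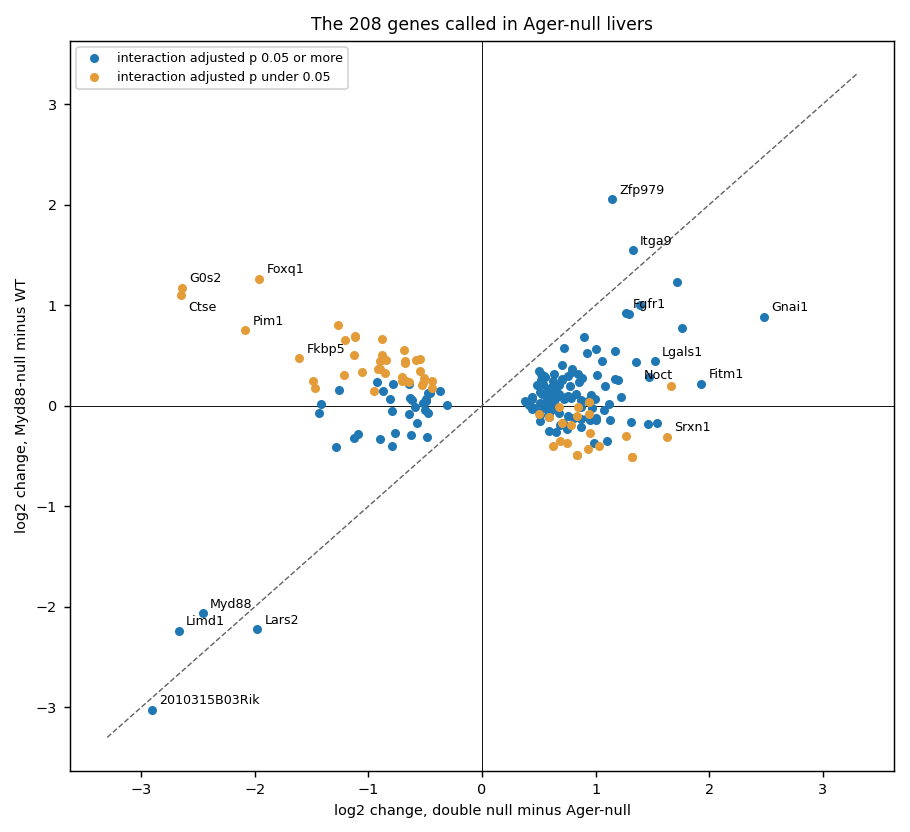
Each of the 208 called genes by its log2 change in double-null minus Ager-null livers (horizontal) and in Myd88-null minus WT livers (vertical), with genes called in the interaction in orange and a dashed line of equal change. Myd88, Limd1, Lars2, 2010315B03Rik, Itga9 and Zfp979 were called on both axes, and Pim1, Ctse, G0s2 and Foxq1 lie below 0 on one axis and above 0 on the other.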

How the data were processed

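RNA of 19 mouse livers was measured, 1 array a sample. The authors deposited log2 values per probe set, made with GCRMA 2.16 per the submitters' processing notes. A 3′ IVT kit amplified and labelled the RNA, per the labels' protocols, and its signal depends on RNA length. Other processing details: not given in the sources used here. These values were used as given. Of 45101 probe sets, 64 controls were left out, and 34945 carried 1 gene symbol in the platform annotation, 932 several and 9160 none (the last 2 kinds were not used). By gene ID, 34741 matched RefSeq (GRCm38.p6), which gave gene order, start sites and promoters.

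Each of 18193 genes was represented by its brightest probe set (by the mean of the 19 arrays), and 8515 genes over log2 4 on at least 4 arrays were tested. limma 3.58.1 in R 4.3.3 (lmFit, eBayes) fitted the 4 genotypes together, two-sided, with Benjamini-Hochberg adjustment over the tested genes. Calls required an adjusted p under 0.05. The fit was tested on simulated data with independent normal noise, which lacks the differences in array quality seen here. That test checks the recovery of planted shifts and not the calls above. Errors are SE of the fit for changes and SD for group means. The number of arrays limits the precision.

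Named genes are Myd88, Ager, the 15 largest rises and falls among called genes with groups that did not overlap, called list members with up to 3 further members by p, called neighbours of Myd88, genes called in both Ager backgrounds and the largest interactions. Members, lists and tests were chosen with earlier results of these data known. Alternatives were other scalings, filters, probe set rules, array weights, blocks by S range or replicate number, and leaving out each array of the compared groups or Myd88-null replicate 4. The Pcx covariate and leaving out each remaining array were added after the data were seen. Same-numbered arrays of the groups did not deviate together (correlations −0.222 to 0.052), so replicate numbers were not treated as pairs.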

Additional observations from a re-analysis of the deposited data

Results flagged for a closer look

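For 14 of the 33 genes whose array values are given above, the Myd88 contrast differed between the Ager backgrounds by the interaction test. Over all tested genes the interaction called 2.41%. Most of the 33 genes were picked for their change in double-null minus Ager-null livers, which is part of the interaction. A large interaction estimate follows in part from that choice, so the count of 14 is a description only. The estimate was negative for Pim1 (−2.83), Fkbp5 (−2.08), Ctse (−3.75), Trim2 (−1.73), G0s2 (−3.82), Ceacam1 (−1.65), Foxq1 (−3.23), Lbp (−0.95), Creld2 (−1.18), Syvn1 (−1.34), Sel1l (−1.81), Klf9 (−1.30) and Lpin1 (−1.26), and positive for Srxn1 (1.93). In limma their adjusted p-values were 0.0255 to 0.0491. Without double-null replicate 3, Myd88-null replicate 3 or Myd88-null replicate 4, the interaction called 0 genes in all, with 1761, 1863 and 1667 at an unadjusted p under 0.05. Without Myd88-null replicate 1 it called 1739.

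A single array stood apart from its group for 2 genes of 66 sets of arrays examined, where chance flags about 1 in 20. Trim2 was at 6.26 in double-null replicate 4, against 7.10 for the next array. Creld2 was at 9.98 in double-null replicate 2, against 10.42 for the next.

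Control spikes outside the comparison also stood apart. The bioB hybridization control, added in equal amount to each array, read 10.64 on Myd88-null replicate 4 and 4.09 to 5.11 on the other 18 arrays. This array enters the shared estimate of the spread and the interaction. Without it 298 genes were called in the comparison of double-null with Ager-null livers, among them all 208.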

How the results depend on the processing

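The count of 208 called genes was 155 to 302 under quantile normalization, median centring, a filter at log2 5, values under log2 4 set to 4, the mean of probe sets, the 2 groups alone, and leaving out Myd88-null replicate 4 (298). It moved further, to 91 with no filter on low values, 619 with array weights, 120 with the S range as a block (31 of them among the 208, in a fit that links the groups only through WT and Myd88-null arrays), 138 with the replicate block (104 of them among the 208) and 7 with the Pcx covariate. Leaving out an array of either group gave 18 to 141, and leaving out a WT or Myd88-null array 92 to 368. The interaction count of 205 was 76 with no filter, 1382 with array weights, 0 with the S range as a block, 37 with the replicate block, 14 with the Pcx covariate, 0 without Myd88-null replicate 4, 0 to 320 with an array of the compared groups left out, and 0 to 1739 with a WT or Myd88-null array left out. The cause was not tested. Of 54 called named genes, none reversed under any alternative. Calls were kept by 54 under array weights, 46 under quantile normalization, 36 under the replicate block, 12 under the S range block and 6 under the Pcx covariate. Of the uncalled named genes, Cyp4b1 (0.50) was −0.17 and Srebf2 (−0.31) was 0.12 with the S range as a block. Of the called genes, 25 had a group mean under log2 4, where background correction sets the level.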
